A study of Mus musculus with 2 samples.

Results

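Pdpn, Trp63, Itga6, Itgb4, Ly6a, Plet1, Cldn3 and Cldn4 are genes whose products are used to recognise or isolate epithelial progenitors and podoplanin-bearing epithelium in the thymus. They were taken by symbol, 8 of the 32285 genes in the count tables, and all 8 were detected in both libraries. Their levels were described across 10 classes of thymic epithelial cells (TECs) set by UMIs (unique molecular identifiers, each marking 1 captured RNA molecule) of other genes, and between the libraries.

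The data were droplet 3' scRNA-seq counts of TECs (EpCAM+ CD45- TER119- cells sorted from digested thymus) of female C57BL/6 mice at 9 weeks of age. Per the labels, 1 library came from mice given a sublethal 5.5 Gy of gamma rays 15 days before analysis and the other from mice that were not irradiated. Each was 1 library of cells pooled from 3 mice, so differences between them had no replicate check, and no test was made. The labels and the names of the deposited files attach the conditions to the libraries in opposite ways, and the study's cell numbers follow the file names. After the same filter the study counted 5070 irradiated and 3233 control cells. Exactly these numbers were kept here from the libraries labelled control and labelled radiation. The libraries are therefore called the library labelled radiation and the library labelled control throughout. By the file names and the study's cell numbers, the library labelled control is the irradiated one, and each direction between the libraries reads the other way round.

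Podoplanin, encoded by Pdpn, is a mucin-type membrane glycoprotein that binds the platelet receptor CLEC-2 and links to the actin cytoskeleton through ezrin and moesin. It marks lymphatic endothelium and lymphoid fibroblasts as well as medullary TECs near the corticomedullary junction. Trp63 encodes p63, a transcription factor that stratified epithelia and the thymic epithelium need to keep their proliferative capacity. Itga6 and Itgb4 encode the chains of the laminin receptor of hemidesmosomes, which holds basal cells to the basement membrane. Ly6a encodes Sca-1, a lipid-anchored surface protein that is induced by interferons and is used with the Itga6 product to sort adult TEC progenitors. Plet1 encodes the antigen of the MTS24 antibody, which marks progenitors in the fetal thymus. Cldn3 and Cldn4 encode claudins, the strand-forming proteins of tight junctions, which mark early medullary precursors as well as mature medullary cells.

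After keeping cells with more than 2000 and fewer than 7500 detected genes and under 15% mitochondrial UMIs, 3233 of 4937 barcodes of the library labelled radiation and 5070 of 7167 of the library labelled control remained, with medians of 13412 and 13003.5 UMIs per cell. The libraries shared 17 barcodes, 5 of them among kept cells. The classes, called gates, were set in a fixed order by UMIs of thymocyte genes, tuft cell genes, the cortical genes Psmb11 and Prss16, cell cycle genes, keratinocyte genes, gut epithelial genes, Aire, and Ccl21a with or without Ccl11, and cells that passed none formed the remainder. In the order radiation then control by label, the gates held 62 and 148 cells (thymocyte RNA), 168 and 158 (tuft), 193 and 392 (cortical), 242 and 628 (cycling), 123 and 124 (keratinocyte-gene), 199 and 244 (gut-gene), 628 and 1041 (Aire), 561 and 886 (Ccl21a with Ccl11), 359 and 600 (Ccl21a without Ccl11) and 698 and 849 (remainder). Epithelial markers that no gate used (Epcam, Krt8, Krt18, Krt5, Krt14 and Cdh1) were all detected in both libraries and summed to 61.0 and 65.3 UMIs per 10000. Levels below are UMIs of a gene per 10000 UMIs of the same cells, with exact Poisson 95% intervals that cover counting error only and not the spread between cells or mice.

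Promoters are shown for Cldn3, Cldn4, Plet1 and Pdpn, the 4 of the 8 genes whose promoters were available. Cldn3 and Cldn4 lie 39279 bases apart on chromosome 5 and had near-parallel levels across the gates. Plet1 and Pdpn belong to the opposing patterns described next. Each run is the 250 bases upstream of the RefSeq gene start, 5' to 3' on the gene's strand, in GRCm38.p6, and capitals mark matches to either of 2 of the 4 motifs searched on both strands, TGANTCA (AP-1) and CCACCC (KLF-type).
Cldn3 (chr5:134985964-134986213, plus strand): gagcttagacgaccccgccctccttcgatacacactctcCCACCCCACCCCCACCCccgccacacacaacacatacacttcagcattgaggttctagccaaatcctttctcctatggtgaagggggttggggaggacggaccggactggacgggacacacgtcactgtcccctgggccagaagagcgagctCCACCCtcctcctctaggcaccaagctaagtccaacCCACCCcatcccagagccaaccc
Cldn4 (chr5:134946935-134947184, minus strand): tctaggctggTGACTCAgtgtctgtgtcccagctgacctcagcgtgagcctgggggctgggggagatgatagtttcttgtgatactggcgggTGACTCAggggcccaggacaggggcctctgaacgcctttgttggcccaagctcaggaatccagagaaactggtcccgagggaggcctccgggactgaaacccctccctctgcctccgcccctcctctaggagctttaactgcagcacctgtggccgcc
Plet1 (chr9:50494275-50494524, plus strand): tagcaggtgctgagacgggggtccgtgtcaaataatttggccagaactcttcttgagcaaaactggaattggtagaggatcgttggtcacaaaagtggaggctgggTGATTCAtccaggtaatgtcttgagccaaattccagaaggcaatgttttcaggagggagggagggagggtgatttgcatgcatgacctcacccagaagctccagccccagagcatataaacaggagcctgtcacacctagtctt
Pdpn (chr4:143299565-143299814, minus strand): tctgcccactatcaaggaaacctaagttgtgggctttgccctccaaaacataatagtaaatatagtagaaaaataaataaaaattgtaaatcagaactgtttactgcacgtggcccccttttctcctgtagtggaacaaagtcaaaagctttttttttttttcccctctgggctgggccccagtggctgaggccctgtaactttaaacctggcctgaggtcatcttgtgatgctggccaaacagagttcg
Cldn4 held 2 matches to TGANTCA and Plet1 held 1, against 6.75% of 32851 mouse promoters of this length with any match. Cldn3 held 5 matches to CCACCC, of which 2 overlapped by 1 base, against 28.1% of promoters with any. No match to AACCNGTT (grainyhead-like, 1.79% of promoters) or CCGGAAGT (ETS, 2.88%) was found in these windows, and Pdpn held no match to any of the 4. A match is a description of the letters and not a binding site. The RefSeq table used here holds promoters of 4 of the 8 genes.

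The 8 genes fell into opposing patterns across the gates. Pdpn, Trp63, Itga6, Itgb4 and Ly6a were highest, or close to it, in cells with abundant Ccl21a, the chemokine of medullary cells that draws thymocytes to the medulla. Plet1 and Cldn3 were highest in the keratinocyte-gene, gut-gene and tuft gates and Cldn4 in the keratinocyte-gene and gut-gene gates, and the claudins were near their lowest in the Ccl21a gates. Across the 20 points given by 10 gates in 2 libraries, which share depth and total UMIs within a library, Pearson's r of log2 levels was 0.93 between Cldn3 and Cldn4, 0.90 between Pdpn and Itgb4, 0.86 between Pdpn and Trp63 and 0.82 between Itga6 and Itgb4. The same measure was -0.74 between Cldn3 and Itgb4 and -0.63 between Cldn3 and Pdpn. Each gate entered once per library, so the 20 points were not independent.

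**Figure D1:**
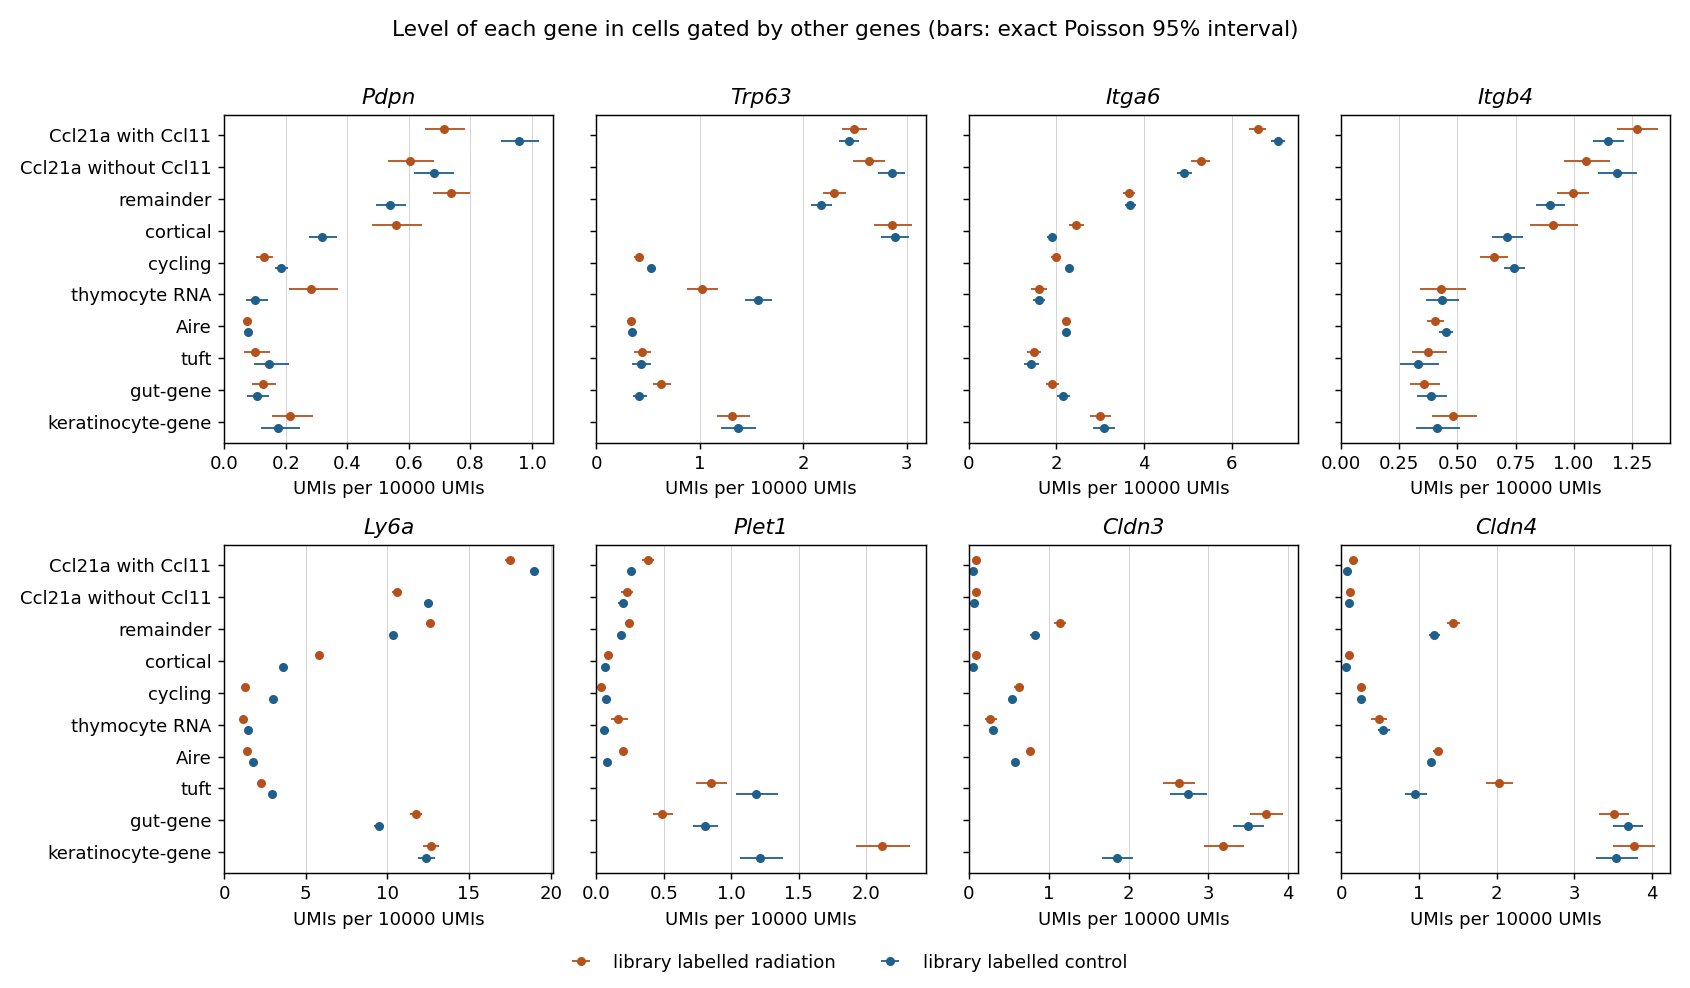
Levels of the 8 genes in the 10 gates, in UMIs per 10000 UMIs on an axis that starts at 0 for each gene, with points for the library labelled radiation (orange) and the library labelled control (blue) and bars for exact Poisson 95% intervals. Pdpn in the gate of Ccl21a with Ccl11 stood at 0.714 and 0.959, and Cldn3 in the same gate at 0.0841 and 0.0486, against 3.72 and 3.50 in the gut-gene gate.

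Pdpn (ENSMUSG00000028583, chr4:143267431-143299564, minus strand) had 1850 UMIs in the library labelled radiation and 2643 in the library labelled control. Its level in Ccl21a cells with Ccl11 was 0.714 (0.651 to 0.781) and 0.959 (0.900 to 1.02), in Ccl21a cells without Ccl11 0.605 and 0.680, and in the remainder 0.737 and 0.540. These gates and the cortical gate led in both libraries, and in the library labelled radiation the intervals of neighbours in that order met, while those of the remainder and of Ccl21a with Ccl11 lay above that of the cortical gate. The cortical gate followed with 0.557 and 0.319, and all other gates lay between 0.0751 and 0.283. In cells thinned at random to 4000 UMIs each, so that depth is equal, 23.2% (19.7 to 26.9, Clopper-Pearson) and 30.8% (27.8 to 34.0) of the Ccl21a cells with Ccl11 had a Pdpn UMI, or 47.8% and 55.9% unthinned. The lowest shares were 1.79% in the tuft gate and 2.46% in the gut-gene gate, whose median depths were 13715 and 14458.5 UMIs. Free RNA of the library's mean composition could bring at most 54.5% and 44.8% of the Pdpn level there, so these shares were not shown to be background. The Aire gate stood at 2.23% and 2.59%, close to those lowest shares.

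Trp63 (ENSMUSG00000022510, chr16:25683763-25892102, plus strand) was highest in the cortical gate, at 2.86 (2.69 to 3.05) and 2.89 (2.76 to 3.02). Ccl21a cells without Ccl11 followed at 2.63 and 2.85, with intervals that met those of the cortical gate in each library. Ccl21a cells with Ccl11 stood at 2.50 and 2.45 and the remainder at 2.30 and 2.17. The gene was thus high in cortical, Ccl21a and remainder cells alike. The keratinocyte-gene gate held 1.31 and 1.37, and the Aire gate, where the gene was lowest, held 0.331 and 0.340. At a fixed 4000 UMIs, 58.5% and 64.8% of cortical cells but 13.1% and 11.2% of Aire cells had a Trp63 UMI. The lowest share was in tuft cells, at 10.7% and 8.86%. Free RNA of the library's mean composition could bring at most 48.3% and 65.0% of the Trp63 level there. Since UMIs were counted at 3' ends, the isoforms of p63 were not told apart.

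Itga6 (ENSMUSG00000027111, chr2:71745616-71858416, plus strand) was found in most cells of every gate without thinning, and was highest in Ccl21a cells with Ccl11 at 6.60 (6.40 to 6.79) and 7.06 (6.89 to 7.22). Ccl21a cells without Ccl11 held 5.29 and 4.92, the remainder 3.65 and 3.68, and the tuft gate, the lowest, 1.48 and 1.43. Its partner Itgb4 (ENSMUSG00000020758, chr11:115974709-116008412, plus strand) showed a flatter order. Itgb4 stood at 1.27 and 1.15 in Ccl21a cells with Ccl11, 1.05 and 1.19 in those without, 0.995 and 0.897 in the remainder, and 0.374 and 0.329 in the tuft gate. Its highest gate exceeded its lowest by 3.56-fold and 3.61-fold, the smallest range among the 8 genes in each library.

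Ly6a (ENSMUSG00000075602, chr15:74994877-74998031, minus strand) had the most UMIs of the 8 genes, and reads of near-identical Ly6 family genes may be split with it. Its level was 17.5 (17.2 to 17.8) and 19.0 (18.7 to 19.3) in Ccl21a cells with Ccl11, where 91.1% and 90.7% of thinned cells had a UMI. The gene did not follow the Trp63 order. It was also high in the remainder (12.6 and 10.3), in keratinocyte-gene cells (12.7 and 12.4) and in gut-gene cells (11.8 and 9.47), and low in Aire cells (1.43 and 1.77). Ly6a was thus high where Pdpn was high and also in the keratinocyte-gene and gut-gene gates, where the claudins were highest, but not in tuft cells (2.28 and 2.92). In the thymocyte RNA gate, the lowest for shares, 17.7% and 15.5% of thinned cells had a UMI.

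Plet1 (ENSMUSG00000032068, chr9:50494525-50505482, plus strand) was highest in keratinocyte-gene cells, at 2.12 (1.92 to 2.33) and 1.22 (1.06 to 1.38). Tuft cells held 0.849 and 1.18, which met the keratinocyte-gene interval in the library labelled control, and gut-gene cells held 0.489 and 0.807. The Plet1 UMIs were concentrated in few cells. The top 1% of cells held 43.2% and 42.6% of all Plet1 UMIs, and single cells held up to 71 and 52 UMIs. For comparison, the top 1% held between 5.69% and 24.9% of the UMIs of the other 7 genes in either library. In tuft cells the gene was more evenly spread, with a UMI in 24.4% and 41.1% of thinned cells and at most 8 and 11 UMIs in a cell. Among Ccl21a cells with Ccl11 the level was 0.380 and 0.256, with at most 5 UMIs in any cell of either library. A UMI was found in 14.8% and 8.80% of these cells after thinning. The lowest gate shares were 0.826% (cycling) and 1.54% (Aire).

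Cldn3 (ENSMUSG00000070473, chr5:134986214-134987472, plus strand) was highest in gut-gene cells at 3.72 (3.52 to 3.93) and 3.50 (3.31 to 3.69). Tuft cells held 2.63 and 2.75 and keratinocyte-gene cells 3.19 and 1.85. Its neighbour Cldn4 (ENSMUSG00000047501, chr5:134945119-134946934, minus strand) stood at 3.51 and 3.69 in gut-gene cells and 3.76 and 3.54 in keratinocyte-gene cells, which could not be ordered, since their intervals met. The Aire gate came lower, with 0.767 and 0.577 for Cldn3 and 1.25 and 1.16 for Cldn4. Despite its lower level, the Aire gate held 27.4% and 33.7% of all Cldn4 UMIs, with 24.0% and 23.4% of all UMIs of kept cells. Both claudins were nearly absent from the Ccl21a and cortical gates, with Cldn3 between 0.0486 and 0.0904 and Cldn4 between 0.0584 and 0.149. At 4000 UMIs a cell, 1.13% to 3.62% of cells in those gates had a UMI of either claudin, which includes the lowest shares of both genes. The limit on free RNA of the library's mean composition exceeded both claudin levels in the cortical gate. In the Ccl21a gates it was between 22.4% and 51.3% of the level.

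Set against all other kept cells, 12 of the pairs of gene and gate were at least 2-fold higher in both libraries. Among all 16986 genes with at least 100 UMIs, the share that met this rule was 4.29% in Ccl21a cells with Ccl11, where 3 of the 8 genes met it (Pdpn, Ly6a and Itga6), and 2.26% in those without Ccl11, where 1 did (Trp63). It was 6.79% in the keratinocyte-gene gate with 3 of the 8 (Plet1, Cldn3 and Cldn4), 8.96% in the gut-gene gate with 2 (Cldn3 and Cldn4), 8.79% in the tuft gate with 2 (Plet1 and Cldn3), and 4.89% in the cortical gate with 1 (Trp63). None of the 8 met it in the Aire (15.5% of genes), thymocyte RNA (4.56%), cycling (4.46%) and remainder (1.82%) gates. Pdpn exceeded the other cells 2.33-fold and 3.75-fold in Ccl21a cells with Ccl11, and Plet1 exceeded them 8.32-fold and 6.45-fold in keratinocyte-gene cells. In each library 1 cell held a large part of those Plet1 UMIs, 71 of 433 and 44 of 228. Plet1 in gut-gene cells passed in the library labelled control alone, at 4.40-fold.

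Within cells the claudins were found together. Of thinned cells with a Cldn3 UMI, 45.3% (41.2 to 49.5) and 39.9% (36.2 to 43.7) also had a Cldn4 UMI, against 13.3% and 13.2% of cells without one. This held inside the remainder, at 53.8% against 10.9% and 54.5% against 13.04%. In Aire cells the shares were close, at 34.4% against 27.9% and 35.1% against 31.1%, with intervals that overlapped in each library. Trp63 showed the converse with Cldn4. It was found in 18.3% and 15.8% of cells with a Cldn4 UMI and in 43.3% and 41.9% of those without, and in the remainder in 22.0% and 18.0% against 59.4% and 55.6%. Pdpn UMIs went with Trp63, found in 59.1% and 56.6% of Pdpn cells against 35.2% and 34.5% of others, and with Ly6a, found in 78.9% and 79.6% against 52.4% and 49.8%. Within the Ccl21a gates these shares were level, with Trp63 in 59.5% and 57.1% of Pdpn cells against 59.4% and 59.2%. Plet1 in the Ccl21a gates was found in 13.2% (10.9 to 15.8) and 8.85% (7.34 to 10.5) of Ly6a cells and in 5.26% (2.14 to 10.5) and 3.18% (1.29 to 6.45) of cells without Ly6a.

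Cells with a Pdpn UMI differed from those without chiefly in the remainder, the cells that no gate took. In the remainder of the library labelled radiation, 289 cells with and 409 without a Pdpn UMI had 3.60 and 1.42 Trp63 UMIs per 10000, a ratio of 2.53 (2.29 to 2.78). In the library labelled control the ratio was 2.14 (1.96 to 2.35). The other basal genes followed, with ratios of 2.45 and 1.61 for Itgb4, 2.06 and 2.14 for Ly6a and 1.39 and 1.27 for Itga6. Cldn3 had ratios of 0.113 and 0.2002 and Cldn4 of 0.111 and 0.197, that is, far fewer claudin UMIs in the cells with Pdpn. The remainder thus held cells of both patterns. In the Ccl21a gates the ratios of Trp63, Itga6, Itgb4 and Ly6a all lay between 0.934 and 1.10, and Plet1 was lower in cells with Pdpn, at 0.630 (0.505 to 0.784) and 0.545 (0.442 to 0.672). Cells with Pdpn were deeper, with medians of 9970 and 9339 UMIs against 9810 and 9258.5 in the remainder, and 11999 and 10944 against 9969 and 9579 in the Ccl21a gates, and the part of depth was not tested.

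**Figure D2:**
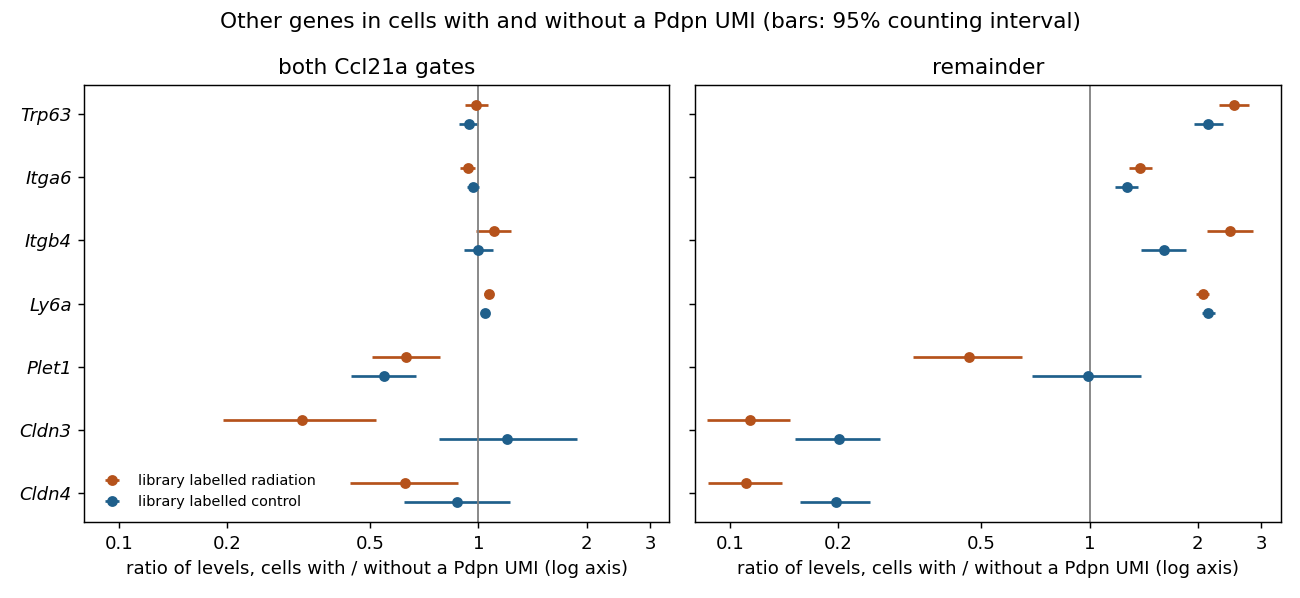
Ratio of the level of 7 genes in cells with a Pdpn UMI to that in cells without, on a log axis, in the Ccl21a gates (left) and the remainder (right), with points for each library and bars for 95% counting intervals. In the remainder Trp63 lies at 2.53 and 2.14 and Cldn4 at 0.111 and 0.197, while Trp63 lies at 0.986 and 0.939 in the Ccl21a gates.

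Among 9044 genes compared in the Ccl21a gates and the remainder together, the 10 with the highest ratio in Pdpn cells of the library labelled radiation were Ly6g, Sprr2a3, Igkc, Prss23, Serpinf1, Prelp, Ackr4, Gpm6b, Thbd and Gnai1, with ratios from 5.72 to 3.23. In the library labelled control, 8 of them were also above 1, from 1.56 (Gnai1) to 2.82 (Sprr2a3). Ackr4, a scavenging receptor for the chemokines CCL19, CCL21 and CCL25, had ratios of 3.74 and 2.22, and Prelp, a proteoglycan of basement membranes, 3.75 and 2.73. Ly6g and Igkc went from 5.72 and 5.05 to 0.0830 and 0.0301, so their ratio in the first library did not recur. In the remainder alone, Ackr4 had ratios of 5.09 and 4.54, Prelp 5.11 and 5.22 and the matrix proteoglycan gene Dcn 4.32 and 3.78.

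Since fibroblasts and lymphatic endothelium also express Pdpn, their markers were summed in all kept cells with and without it. The 7 fibroblast markers, which include Dcn, were all detected. They summed to 7.09 and 3.36 UMIs per 10000 in cells with Pdpn against 1.97 and 1.66 in those without. In the remainder of the library labelled control the 7 markers summed to 5.36. Dcn made up a large part of that sum, at 9.42 in cells with Pdpn and 2.49 in those without. Over all kept cells, the sums with and without Pdpn were not split by marker. Pdgfra or Pdgfrb, the defining receptors of fibroblasts, were found in 4.28% and 3.79% of cells with Pdpn against 13.9% and 12.8% of those without. These shares covered all kept cells of all gates without thinning. Median depth was 19262 and 16444 UMIs in Aire cells, where Pdpn was rare, against 10987 and 10381 in Ccl21a cells with Ccl11. The part of depth and gate in these shares was not tested. The part of the summed list in the Pdpn ratios was not tested. The 6 endothelial markers summed to 0.0656 and 0.0484 against 0.241 and 0.141. In the gate of Ccl21a with Ccl11, Cdh5, Kdr and Emcn were at 0 in both libraries, and Pecam1 and the lymphatic genes Lyve1 and Prox1 were above 0, with 8, 7 and 5 UMIs in the library labelled radiation and 7, 14 and 2 in the library labelled control.

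Over all kept cells, the genes of the Pdpn pattern had near-equal levels in the libraries and those of the claudin pattern were lower in the library labelled control. Plet1 stood at 0.328 in the library labelled radiation and 0.214 in the library labelled control. Its log2 ratio, of control to radiation by label, was -0.62 (-0.72 to -0.52). Cldn3 stood at 0.985 and 0.661, a ratio of -0.58 (-0.63 to -0.52), and Cldn4 at 1.09 and 0.805, a ratio of -0.44 (-0.49 to -0.39). Plet1 alone was past 1.5-fold, and 10.4% of the 16986 genes were past it in either direction, so 1 of 8 is close to that background. Cldn3 lay just inside the limit. The log2 ratios of the other genes were -0.04 (-0.12 to 0.05) for Pdpn, 0.02 for Trp63, 0.02 for Itga6, 0.01 for Itgb4 and -0.07 (-0.09 to -0.05) for Ly6a, with a median of -0.05 over all genes.

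The gates in which Plet1 and the claudins were high held smaller shares of the cells in the library labelled control. Keratinocyte-gene cells made up 3.80% and 2.45% of kept cells, in the order radiation then control by label, gut-gene cells 6.16% and 4.81% and tuft cells 5.20% and 3.12%. With both libraries given the same mean share of UMIs per gate, the log2 ratio was -0.29 for Plet1, -0.28 for Cldn3 and -0.15 for Cldn4. The standardised ratios of the other 5 genes lay between -0.02 and 0.03.

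**Figure D3:**
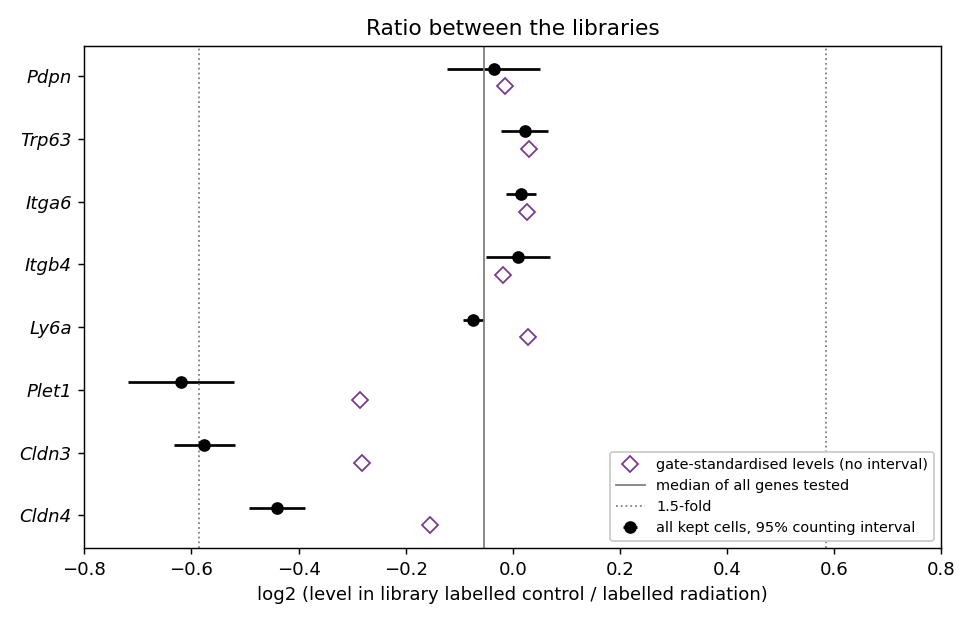
Log2 ratio of the level in the library labelled control to that in the library labelled radiation for the 8 genes, over all kept cells (filled points, bars for 95% counting intervals) and with gate shares made equal (open diamonds), with a solid line at the median of all genes and dotted lines at 1.5-fold. Plet1 moves from -0.62 to -0.29 and Cldn4 from -0.44 to -0.15, while Pdpn, Trp63, Itga6 and Itgb4 stay near the median of all genes, -0.05.

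Inside gates, the direction between libraries varied with the gene. Pdpn was higher in the library labelled control in Ccl21a cells with Ccl11 (0.714 and 0.959, log2 ratio 0.43, 0.27 to 0.59) and lower there in the remainder (0.737 and 0.540, -0.45, -0.63 to -0.27) and in cortical cells (0.557 and 0.319, -0.80, -1.10 to -0.51). The summed fibroblast markers were lower in the library labelled control in the same gates. They stood at 10.97 and 5.36 in the remainder, 4.10 and 1.91 in cortical cells and 3.11 and 2.15 in Ccl21a cells with Ccl11. Dcn made up a large part of the remainder sum in the library labelled control. In cortical cells Pdgfra was at 0 in both libraries, and Col1a1 and Col3a1 were also at 0 in the library labelled radiation. The part of these markers in the Pdpn ratios was not tested. Pdpn was also higher in the library labelled control in cycling cells, at 0.129 and 0.185 (0.52, 0.18 to 0.88). Free RNA of the library's mean composition could bring at most 45.7% and 58.4% of that level, and how much was present was not tested. The near-equal Pdpn level over all cells thus covered opposite differences. In cortical cells Ly6a was also lower in the library labelled control, at 5.81 and 3.59 (-0.69, -0.78 to -0.61), and Itga6 and Itgb4 had ratios of -0.37 and -0.36, while Trp63 had 0.01. The share of all genes past 1.5-fold in cortical cells was 5.75%, and Pdpn and Ly6a were past it. Krt5 moved the other way in these cells (4.48 and 7.49) and so did Ccl21a (21.3 and 26.3), while Krt14 (4.79 and 3.57) and Aire (1.08 and 0.676) moved the same way as Pdpn, and their part in the ratios was not tested.

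Ly6a had its widest difference in cycling cells, with 1.30 (1.21 to 1.38) in the library labelled radiation and 2.997 (2.91 to 3.09) in the library labelled control. The log2 ratio there was 1.21 (1.11 to 1.31), at percentile 99.5 of all genes compared. The share of cells with a UMI differed less, at 26.9% (21.4 to 32.9) and 36.3% (32.5 to 40.2) of thinned cells. In the same cells Ccl21a stood at 6.46 and 10.2 and Krt5 at 4.995 and 7.54, and their part was not tested. Free RNA of the library's mean composition could bring at most 1.21 and 2.18 of these Ly6a UMIs per 10000, as limited by Plet1 and Ccl21a in the same cells. These upper limits were 93.7% and 72.6% of the Ly6a level, and how much free RNA was present was not tested. With only cells that passed 1 gate, the log2 ratio was 0.19, and without the 5 cells with most Ly6a UMIs in each library it was 1.57. The share of all genes past 1.5-fold in cycling cells was 4.98%, and Plet1 was past it as well, with 26 and 112 UMIs (log2 ratio 1.01, 0.38 to 1.68). Free RNA of the mean composition could bring up to 167% and 89.6% of the Plet1 level there, as limited by Ly6a and Ccl21a. Single cells held up to 12 of the 26 and 23 of the 112 UMIs, and the part of free RNA was not tested. The Plet1 log2 ratio became -1.32 with only cells that passed 1 gate. Without the 5 cells with most Plet1 UMIs in each library it was 2.18.

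For Plet1, single cells weighed on the ratios. In Aire cells its level was 0.1995 and 0.0771 (log2 ratio -1.37, -1.68 to -1.06), but 57 of the 247 UMIs of the library labelled radiation came from 1 cell, and without the 5 cells with most Plet1 UMIs in each library the ratio was -0.41. In gut-gene cells the level was 0.489 and 0.807 (0.72, 0.45 to 1.004), or a ratio of 0.25 without those cells. In keratinocyte-gene cells Plet1 had a ratio of -0.80 and Cldn3 of -0.78, and with only cells that passed 1 gate these became 0.62 and 0.19. The Plet1 level there was 0.926 and 0.532 without the 5 highest cells of each library, below the tuft level in the library labelled control. In the tuft gate Cldn4 alone, of 7 members with enough UMIs, was past 1.5-fold, at 2.04 (1.87 to 2.22) and 0.956 (0.825 to 1.102). Its log2 ratio of -1.09 (-1.34 to -0.85) was also -1.09 without the 5 highest cells. Cldn3 in the same tuft cells had 0.06 (-0.10 to 0.23). Of all genes, 8.36% were past 1.5-fold in the Aire gate, 8.24% in the gut-gene gate, 11.6% in the keratinocyte-gene gate and 6.3% in the tuft gate.

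Trp63 was past 1.5-fold in the thymocyte RNA gate (1.02 and 1.56, log2 ratio 0.62, with 12.7% of genes past it) and in gut-gene cells (0.629 and 0.413, -0.61). Without the 5 cells with most Trp63 UMIs the ratios were 1.02 and -0.49, and with only cells that passed 1 gate they were 2.39 and -0.68. In Ccl21a cells with Ccl11, 3.79% of genes were past 1.5-fold. Cldn3 and Cldn4 were past it near their lowest levels, with ratios of -0.79 and -0.94 on 56 and 49 and on 99 and 78 UMIs. Free RNA of the mean composition could bring at most 35.8% and 36.1% of the Cldn3 level there. For Cldn4 the limit was 22.4% and 27.7%. None of the 8 was past it in Ccl21a cells without Ccl11 (3.18% of genes) or in the remainder (8.34%). Cldn3 and Cldn4 had intervals wholly below 0 in 5 gates each and wholly above 0 in none, while Ly6a was higher in the library labelled control in 6 gates and lower in 3. Those of Cldn4 include the cortical gate, with 35 and 37 UMIs, under the 100 needed for a ratio. Those of Cldn3 include the keratinocyte-gene gate, where the ratio became 0.19 with only cells that passed 1 gate. How many of all genes had such counts was not computed.

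**Figure D4:**
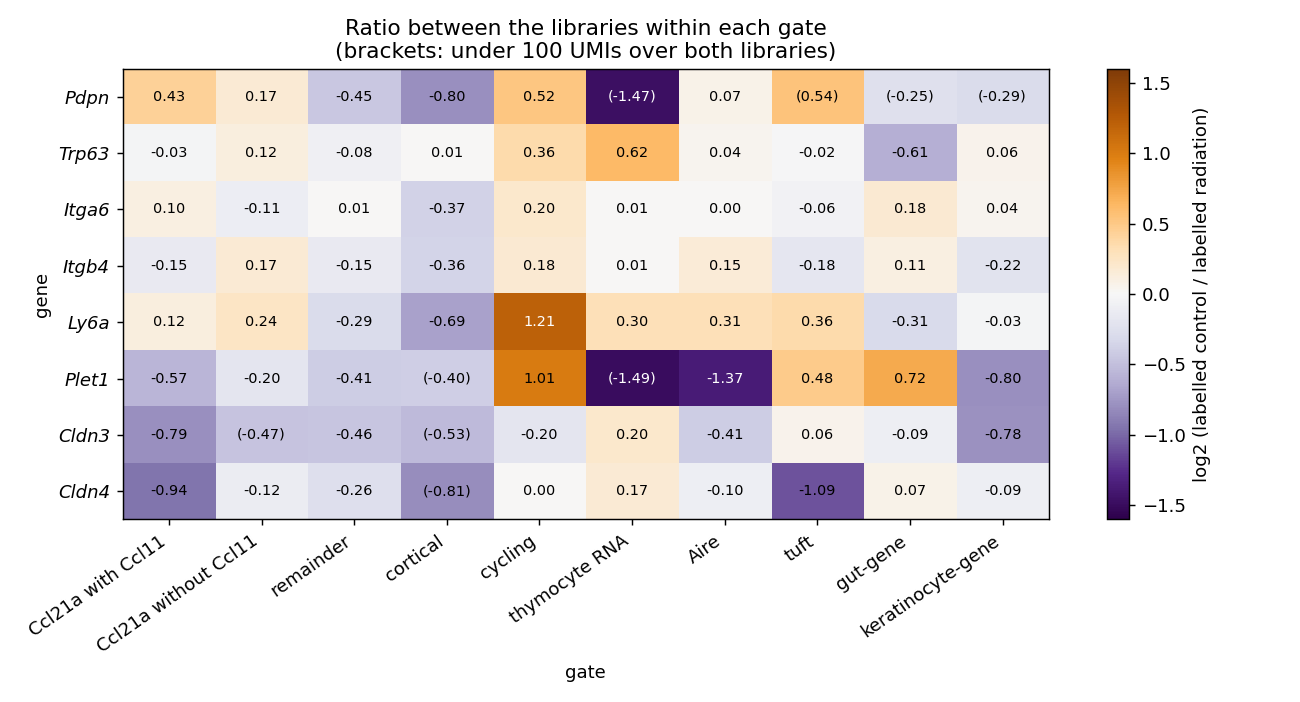
Log2 ratio of the library labelled control to the library labelled radiation for each of the 8 genes (vertical axis) in each gate (horizontal axis), with the value printed in each cell and bracketed where both libraries together held under 100 UMIs. Ly6a stands at 1.21 in cycling and -0.69 in cortical cells, and Itga6 reaches at most 0.37 from 0 in either direction, in the cortical gate (-0.37).

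The genes whose levels across the 20 points were most like each member were found by the same correlation of log2 levels, which share a library's depth. For Pdpn they were Myl9, a myosin light chain (r = 0.97), Antxr1 (0.96) and Gas1 (0.95), and for Itgb4 Large2, Fstl1 and Mmp14, a membrane-bound matrix metalloproteinase. For Trp63 they were Ddr1, a collagen receptor kinase, Mir205hg and Wls (each 0.98), and for Itga6 Atoh8, Ch25h and Gm17167. For Ly6a the likeness was lower, with H2-T22 (0.91), 2900026A02Rik and Zbp1 (each 0.90). For Cldn3 the most alike gene was another claudin, Cldn7 (0.97), followed by Lrba and Slc37a1, for Cldn4 they were Akr1c12, Skint9 and Mxd1, and for Plet1 Macc1, Zdhhc9 and Myh14 (0.94 to 0.93).

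Related genes were described by list, with the median log2 ratio beside -0.05 for all genes and the count past 1.5-fold beside 10.4% of all genes. Of 13 basal adhesion genes (keratins, laminin chains and hemidesmosome partners), none was past 1.5-fold between libraries and the median was -0.05, with Krt5 (0.32) and Krt14 (0.15) at the top and Itga3 (-0.23) and Col17a1 (-0.30) at the bottom. Of these genes, 6 were at least 2-fold higher in Ccl21a cells with Ccl11 in both libraries, where Itga6 was too, among them Krt5, Krt14, Lama3, Lamb3 and Cd151 (4.29% of all genes). Of 14 tight junction genes, 1 was past 1.5-fold, lower in the library labelled control (Cldn5, -0.61), with a median of -0.25. Cldn23 (-0.53) was next to it, and Epcam (0.16) was at the top. Cldn7, Cldn23, Cgn and Cldn1 were at least 2-fold higher in keratinocyte-gene cells in both libraries (6.79% of all genes), as Cldn3 and Cldn4 were. Cldn1 was also at least 2-fold higher in Ccl21a cells with Ccl11 (4.29%), where Cldn3 and Cldn4 were nearly absent. Of 11 Ly6 family genes, 3 were past 1.5-fold, all lower in the library labelled control, with a median of -0.26: Ly6g (-1.29), Lypd3 (-0.81) and Ly6c1 (-0.66). Ly6c2 (0.54) and Ly6k (0.066) were highest.

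None of 10 p63-related epidermal genes was past 1.5-fold, with a median of -0.02 and values from -0.31 (Sfn) and -0.23 (Jag2) to 0.027 (Nectin1) and 0.14 (Fgfr2). Of these, 3 (Jag2, Dsc3 and Dsp) were at least 2-fold higher in the cortical gate (4.89% of all genes). Trp63 was highest there, with an interval that met that of Ccl21a cells without Ccl11. Another 3 (Perp, Fgfr2 and Cdh3) were at least 2-fold higher in Ccl21a cells with Ccl11 (4.29%). In the keratinocyte-gene gate, where Trp63 was 0.959-fold and 0.985-fold of its level in other cells, 5 of the list were (6.79%): Perp, Sfn, Dsg3, Dsp and Pkp1. Of 8 podoplanin partners, Clec1b, the CLEC-2 gene, was past 1.5-fold and higher in the library labelled control (0.0163 and 0.0261, 0.68), with a median of 0.01 for the list. Msn, which encodes moesin, stood at 0.22, and Cd9 and Lgals8 at -0.061 and -0.024. Of 12 other genes reported as TEC progenitor markers, 4 were past 1.5-fold, all lower in the library labelled control, with a median of -0.28: Ccn2 (-0.999), Bmp4 (-0.91), Ackr4 (-0.80) and the keratin gene Krt19 (-0.73). Pax1 (0.22) and Foxn1 (0.12), transcription factors of the thymic epithelium, were highest. Ackr4 and Bmp4 were at least 2-fold higher in the remainder in both libraries (1.82% of all genes). Ackr4 was so in the cortical gate too (4.89%), with Pax1 and Foxn1.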

How the data were processed

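The authors trimmed the reads with Fastp, aligned them to mm10 and counted UMIs with Cell Ranger (5.1 in the submitters' processing notes, 5.0.1 in the file headers). They deposited raw counts (UMIs) per gene and barcode, not normalized. The labels name v2 and the study's methods v3 chemistry, and the extraction protocol gives an age that differs from the characteristics.

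Here, genes found in at least 5 barcodes of a library counted as detected. Gates needed 10 UMIs for the thymocyte, tuft, cycling, keratinocyte and gut lists and 5 for the cortical pair, each from at least 2 different genes. Aire needed 5 UMIs, Ccl21a 50 and Ccl11 2. The order of precedence was thymocyte, tuft, cortical, cycling, keratinocyte, gut, Aire and Ccl21a. Some kept cells passed several gates, 15.3% in the library labelled radiation and 19.2% in the library labelled control, and took the first. Gates used no member. Doublets were not removed, and leaving out the 5% deepest cells was an alternative.

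Levels were sums of UMIs per 10000, and ratios between libraries had exact conditional binomial 95% intervals. UMIs of 1 cell are not independent, so intervals and shares cover counting error only. Cells were thinned at random to 4000 UMIs for shares, which left out 5 cells of the library labelled control. Correlations used log2(level + 0.1) and genes with at least 500 UMIs. With 1 library per label there was no test, and the share of all genes past the same fold stands beside the counts of genes in the report. The free RNA limit took the lowest ratio, at the upper bound of its interval, of gate level to library level over the other members, Ccl21a and Aire. Named genes were the 8 members, the 3 most alike genes of each, the 10 with the highest ratio in Pdpn cells and the 2 highest and 2 lowest genes of each list by log2 ratio. Other genes of the lists were named where they passed a limit, after their values were seen. Some genes of the lists are not reported here by name. The members, lists and gates were chosen with earlier results of these data known. Gene coordinates were from GENCODE M21 (GRCm38). Python 3.11.15, numpy 2.4.6, scipy 1.17.1, pandas 2.3.3 and matplotlib 3.10.9 were used. The ratio computation was tested on simulated counts.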

Additional observations from a re-analysis of the deposited data

Results flagged for a closer look

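For 3 genes, the libraries differed past 1.5-fold in opposite directions in different gates, with counting intervals away from 0. With 1 library per label, the difference between gates was not tested. How many of all genes do the same was not computed, so these 3 are not set apart from other genes. In single gates, the share of genes past 1.5-fold ran from 3.18% (Ccl21a without Ccl11) to 12.7% (thymocyte RNA). All values are log2 ratios of the library labelled control to the library labelled radiation. Trp63 stood at 0.62 in the thymocyte RNA gate and at -0.61 in the gut-gene gate. Plet1 stood at 1.01 in the cycling and 0.72 in the gut-gene gate, and at -0.80 in the keratinocyte-gene and -1.37 in the Aire gate. In the cycling gate the Plet1 level was 0.0367 in the library labelled radiation, below a free RNA limit of 0.0613. In the library labelled control it was 0.0737, above a limit of 0.0660. Ly6a stood at 1.21 in the cycling gate and at -0.69 in the cortical gate. Under alternatives the cycling value of Ly6a ranged from 0.19 to 1.57 and the cortical value from -1.05 to -0.60. The Plet1 values ranged from -1.32 to 2.18 (cycling) and from -0.87 to 0.62 (keratinocyte-gene), so both changed sign. In the gut-gene gate Plet1 ranged from 0.25 to 0.84 and in the Aire gate from -2.05 to -0.41. Trp63 ranged from 0.50 to 2.39 (thymocyte RNA) and from -0.68 to -0.49 (gut-gene).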

How the results depend on the processing

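No paired analysis was possible because each label had 1 library. Of the log2 ratios in gates recomputed under alternatives, 135 values stayed within their counting interval, 17 moved and 3 reversed. Over all kept cells 96 stayed, 15 moved and 1 reversed. Among the others, with only cells that passed 1 gate or none, Plet1 stood at -0.43, Cldn3 at -0.47, Cldn4 at -0.35 and Ly6a at -0.054, and no gene was past 1.5-fold. By the mean over cells in place of the ratio of sums, Cldn3 stood at -0.49, Cldn4 at -0.37, Ly6a at -0.12 and Itgb4 at -0.068. Centred on the median of all genes, Trp63 stood at 0.077, Itga6 at 0.069, Ly6a at -0.019 and Cldn4 at -0.39, and 0 genes were past 1.5-fold. With gate shares made equal, Plet1 stood at -0.29, Cldn3 at -0.28 and Cldn4 at -0.15, Ly6a turned to 0.028, and 0 genes were past 1.5-fold. The count past 1.5-fold was 2 under 10% mitochondrial UMIs, 0 without the 5 cells with most UMIs of the gene in each library (an alternative chosen after seeing the data) and 0 at 2-fold. At 1.5-fold in place of 2-fold, 22 pairs of gene and gate were called in place of 12. With only cells that passed 1 gate, Plet1 turned to -1.32 in cycling cells and 0.62 in keratinocyte-gene cells, and Cldn3 to 0.19 in the latter. The highest gate was the same in 184 of 192 combinations of gene, library and alternative, and the exceptions touched Pdpn, Cldn4, Trp63 and Plet1. Among them, Cldn4 of the library labelled radiation was highest in the thymocyte RNA gate with only cells that passed 1 gate or none. The level in the highest gate moved in 56 of the 192. The share of cells with a UMI there moved in 29 cases and stayed in 3 when thinning was changed. Centring gives no value for levels. The causes of these moves were not tested, and the ratio with equal gate shares is a description only. Members with under 100 UMIs in a gate, such as Pdpn in tuft cells, were too shallow for a ratio.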
